A study of Danio rerio with 6 samples.

Results

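The genes described here were strongly higher in high-Wnt neural crest (NC) cells than in low-Wnt NC cells of the zebrafish embryo. A gene was a member when its lowest TPM (an abundance per transcript length, scaled to a fixed total per library) in high-Wnt replicates 1, 2 and 3 was at least 10. That value also had to be at least 3 times its highest TPM in low-Wnt replicates 1 and 2. Low-Wnt replicate 3 was not used to choose members and was held out. The rule found 71 of the 32057 genes in the table, or 1.17% of the 6090 genes that reached the level in all high-Wnt libraries.

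All 6 libraries came from embryos at 24 h post-fertilization (hpf) that carried both transgenes, so the groups share them. The allele Tg(-7.2sox10:EGFP)ir937 marked NC cells with EGFP under the sox10 promoter, and Tg(7XTCF:nls-mCherry)ia5 reported canonical Wnt responses with nuclear mCherry under TCF binding sites. Cells were dissociated with collagenase P and trypsin and sorted by FACS into mCherry+ (high-Wnt) and mCherry- (low-Wnt) cells, with 3 Smart-seq2 libraries of each. The sources used here do not say whether replicates came from separate clutches, so p-values measure only the spread between these libraries, which may be technical. Values of a gene are given in the order of replicates 1, 2 and 3 of each population.

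In canonical Wnt signalling, a ligand at the cell surface stabilizes beta-catenin, which enters the nucleus and activates genes with TCF/LEF proteins. Wnt signals are known to act in the induction of the NC and in the choice of pigment fates over others. The NC gives rise to pigment cells, peripheral neurons, glia and the skeleton of the face. Skeletal muscle and epidermis are not NC derivatives, and the sox10 promoter is also known to be active in the developing ear.

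Low-Wnt replicate 3 stood apart from the other libraries. In it 9230 genes reached 1 TPM, where the others had between 13481 and 14417, and the median TPM of the 6090 genes above was 12.0 in it and between 32.1 and 35.2 in the others. NC markers were present in every library. SOX10, the transcription factor whose promoter drives EGFP, was at 244, 343 and 310 TPM in high-Wnt cells and at 259, 240 and 72.9 TPM in low-Wnt cells. AXIN2, a feedback gene of the Wnt pathway, was at 26.2, 20.4 and 18 TPM in high-Wnt cells and at 24.0, 23.2 and 1.47 TPM in low-Wnt cells. Leaving out low-Wnt replicate 3, the log2 fold change of AXIN2 was -0.14 (standard error 0.19, limma adjusted p = 0.66), and the groups overlapped. The mCherry transcript was not analysed here.

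The members spanned abundant and rare transcripts. Their mean TPM in high-Wnt cells ranged from 10.6 to 3863 with a median of 43.4, and 20 members exceeded 100 while 29 were under 30. Together they held 1.66%, 2.06% and 2.09% of all TPM in the high-Wnt libraries, and 0.363%, 0.341% and 0.495% in the low-Wnt libraries. The median member had 5.72 times more TPM in the mean of the high-Wnt libraries than in the mean of low-Wnt replicates 1 and 2. The replicates of high-Wnt cells were close for most members, with a maximum within 1.5 times the minimum for 53 of 71 and over 2 times it for 4. The rule used the lowest high-Wnt value, which may favour genes with close replicates. No such count was made over all genes. High-Wnt replicate 1 was the lowest of the 3 for 34 members and the highest for 25.

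**Figure D1:**
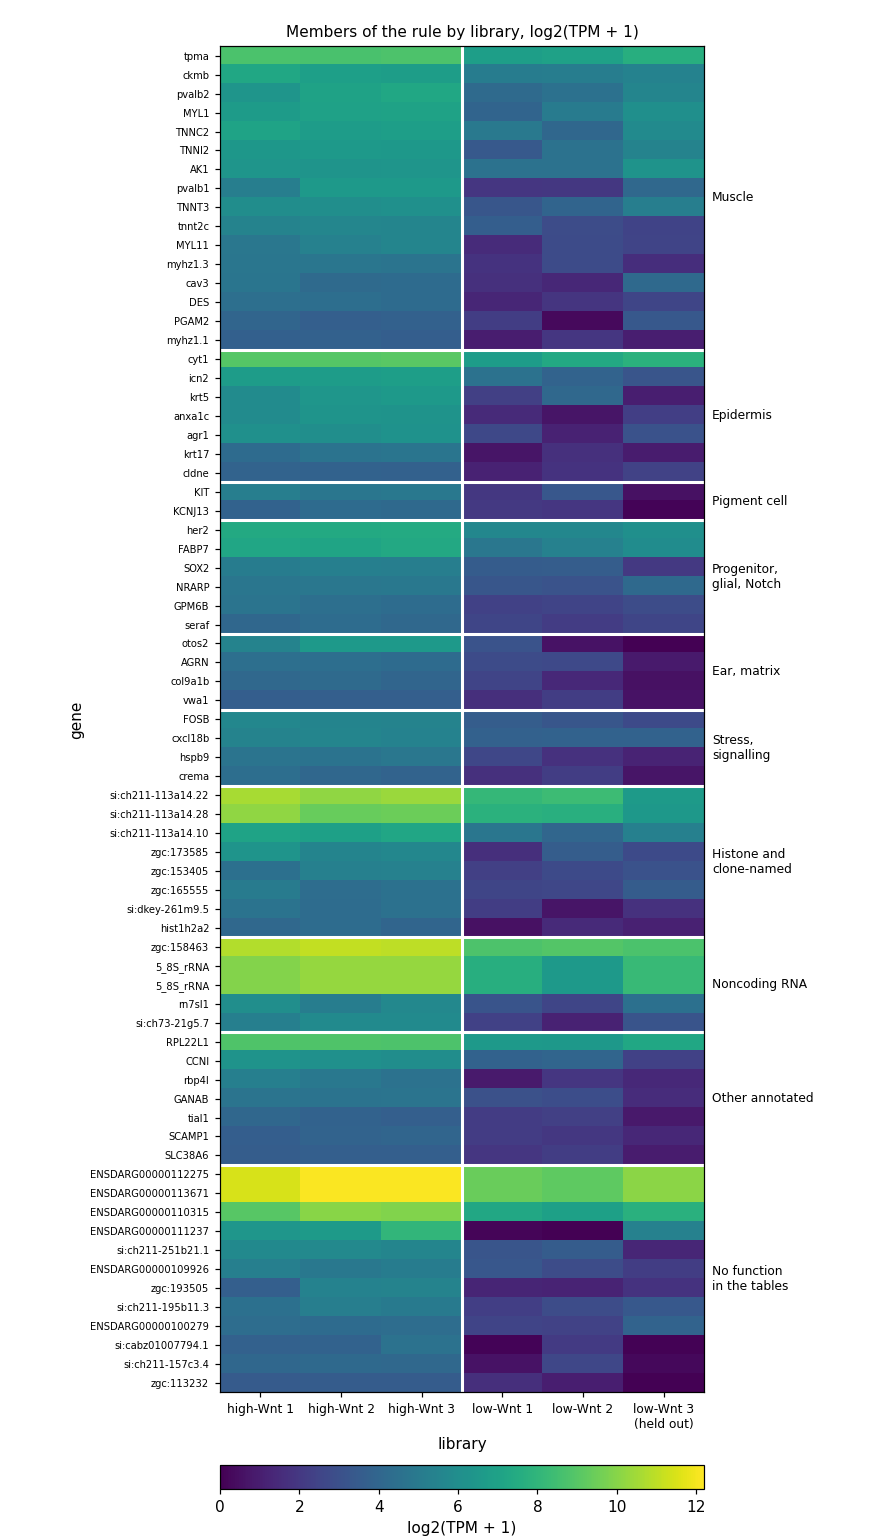
Heat map of log2(TPM + 1) for the 71 members (rows, grouped by what the genes are known to do) in the 6 libraries (columns). The first 3 columns are brighter than the next 2 in every row, which the rule fixes, and the last column, low-Wnt replicate 3, varies by group.

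By symbol, 65 members had a name in the gene table and 6 had none. Upper-case symbols are the names that the table gives to zebrafish genes. Of the members, 38 matched a RefSeq entry (assembly GRCz12tu) by symbol: 36 protein-coding genes, 1 long noncoding RNA and 1 ribosomal RNA. By annotation or known function, the members were 16 muscle genes, 7 genes of the epidermis and periderm, 2 genes of pigment cells, 6 genes of neural progenitors, glia and Notch signalling, 4 genes of the ear and extracellular matrix, 4 stress and signalling genes, 8 histone and clone-named cluster genes, 5 noncoding RNA genes, 7 other annotated genes and 12 without a function in the tables. These groups were formed after the members were known. They describe the list and were not tested.

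The largest group, the 16 muscle genes, included genes of the contractile apparatus of skeletal muscle, mostly the fast fibre isoforms. TNNT3, a fast troponin T, was at 61.2, 64.7 and 68.3 TPM in high-Wnt cells and at 8.51, 14.12 and 36.4 TPM in low-Wnt cells, the last being the held-out library. The fast troponin I gene TNNI2 was at 87.1, 91.6 and 90.1 TPM in high-Wnt cells and at 9.51, 23.1 and 42.5 TPM in low-Wnt cells. TNNC2, the fast troponin C that binds calcium, was at 133, 107 and 114 TPM against 29.4, 15.8 and 55.6 TPM. In all 3 genes, low-Wnt replicate 3 lay between the other low-Wnt libraries and the high-Wnt libraries, and the groups did not overlap. The rule fixes the gap to low-Wnt replicates 1 and 2. Over all 14163 genes tested, groups did not overlap in this direction for 22.4%. Outside the rule, another TNNT3 gene was at 19.0, 30.9 and 27.6 TPM against 9.42, 4.15 and 26.4 TPM, with overlapping groups. Another TNNI2 gene was at 126, 141 and 149 TPM against 46.3, 36.1 and 54.9 TPM, without overlap. Related troponin genes outside the rule did not all rise. A TNNI1 gene was lower in every high-Wnt library, at 20.26, 17.13 and 18.38 TPM against 57.41, 20.27 and 41.02 TPM. TNNT2 was at 21.1, 27.4 and 29.1 TPM against 36.1, 23.5 and 31.2 TPM, with overlapping groups. Groups also overlapped for TNNC1, at 36.0, 20.9 and 21.4 TPM against 25.4, 1.99 and 19.0 TPM.

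The myosin and tropomyosin members had the same order of groups at a wide range of levels. tpma, an alpha-tropomyosin of the thin filament, was the most abundant muscle member, at 423, 417 and 446 TPM in high-Wnt cells and 115, 126 and 203 TPM in low-Wnt cells. MYL1, an alkali light chain of myosin, was at 103, 127 and 128 TPM in high-Wnt cells and at 14.5, 32.8 and 67.4 TPM in low-Wnt cells. Another gene with the symbol MYL1, outside the rule, was at 98.2, 102 and 96.1 TPM against 11.8, 42.3 and 108 TPM. Its held-out value was above every high-Wnt library. MYL11, a fast regulatory light chain, was at 27.4, 39.9 and 46.3 TPM against 1.81, 5.96 and 4.59 TPM. A second gene with the symbol MYL11 was outside the rule. It was at 150, 179 and 180 TPM in high-Wnt cells and at 29.6, 70.6 and 70.0 TPM in low-Wnt cells. Its smaller gap to the low-Wnt libraries that the rule used follows from its place outside the rule. The held-out value, which the rule did not use, was also a larger share of the high-Wnt level for this copy than for the member.

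The fast myosin heavy chain genes myhz1.1 and myhz1.3 were both members, and RefSeq lists them and myhz1.2 as neighbours. myhz1.3 was at 26.3, 26.8 and 24.7 TPM in high-Wnt cells and 2.5, 5.84 and 2.02 TPM in low-Wnt cells. myhz1.1 was at 12.3, 12.9 and 11.6 TPM against 0.97, 2.81 and 1.04 TPM, and myhz1.2, not a member, was at 2.05 TPM or less in every library. Copies this similar share reads that the authors' quantification had to divide, so the split between them is uncertain. tnnt2c, a troponin T gene, was at 43.4, 46.9 and 46.5 TPM in high-Wnt cells and 11.32, 6.03 and 4.55 TPM in low-Wnt cells, and unlike most muscle members it was lowest in the held-out library.

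Calcium buffers and energy enzymes of muscle made up most of the rest. pvalb1, a parvalbumin that buffers calcium in fast fibres, was at 36.6, 95.2 and 94.7 TPM in high-Wnt cells and 2.80, 2.91 and 16.4 TPM in low-Wnt cells. Its relative pvalb2 was at 81.6, 131 and 152 TPM against 17.5, 22.6 and 46.5 TPM. Both parvalbumins were lowest in replicate 1 among the high-Wnt libraries. Other parvalbumin genes, outside the rule, went both ways. Groups overlapped for pvalb7, at 12.9, 29.1 and 26.7 TPM against 20.5, 26.3 and 21.1 TPM. They did not for pvalb4, at 14.99, 6.33 and 7.90 TPM against 0, 0 and 1.92 TPM. ckmb, a muscle creatine kinase, was at 154, 117 and 111 TPM in high-Wnt cells and 33.8, 35.5 and 41.7 TPM in low-Wnt cells. The intermediate filament gene DES (desmin) was at 20.8, 20.2 and 18.4 TPM against 1.51, 2.70 and 4.81 TPM.

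For 3 muscle genes the held-out library was near the high-Wnt level. AK1, an adenylate kinase, was at 80.9, 78.1 and 80.6 TPM in high-Wnt cells and at 23.5, 22.9 and 75.7 TPM in low-Wnt cells. cav3, the muscle caveolin, was at 25.9, 17.6 and 18.1 TPM in high-Wnt cells and at 2.20, 1.53 and 17.2 TPM in low-Wnt cells. PGAM2, the muscle phosphoglycerate mutase, was at 15.02, 11.8 and 12.9 TPM against 3.60, 0.24 and 9.27 TPM. The low-Wnt libraries differed among themselves in these genes by more than the high-Wnt libraries did. The rule and the choice of these 3 genes by their held-out value largely fix that difference.

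Summed over the 16 muscle members, TPM was 1331, 1405 and 1463 in high-Wnt cells and 278, 321 and 628 in low-Wnt cells. For 12 of the 16, low-Wnt replicate 3 was above both other low-Wnt libraries. The wider list of muscle and somite markers held 29 genes, of which 8 were members, 23 were tested and 3 were at 0 in every library. It summed to between 2316 and 2950 TPM in high-Wnt cells and between 791 and 1086 TPM in low-Wnt cells. In bulk samples, fewer cells of a type and less RNA per cell cannot be told apart. How far muscle cells or their RNA in the sorted fractions account for the muscle members was not tested.

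With all 6 libraries, limma called none of the 23 tested muscle genes at an adjusted p under 0.05. At an unadjusted p under 0.05, 18 were higher in high-Wnt cells. That count includes the 8 members, which the rule chose on this contrast. Over all 14163 genes tested, limma called 0.261% higher, and 11.7% were higher at that unadjusted p. In the fit without low-Wnt replicate 3, which called 7.17% of 15000 genes higher, 10 of the 15 muscle genes that were not members were called higher. One was actc1b, a muscle actin, at 1687, 1006 and 1040 TPM in high-Wnt cells and 399, 390 and 543 TPM in low-Wnt cells (log2 fold change 1.61, limma adjusted p = 0.0053 in that fit, 0.066 with all 6 libraries). The myogenic regulators were under 10 TPM in every library. MYOG was at 7.76, 9.67 and 8.29 TPM in high-Wnt cells and at 3.03, 3.98 and 2.31 TPM in low-Wnt cells (log2 fold change 1.09, limma adjusted p = 0.025 without low-Wnt replicate 3, 0.27 with all 6 libraries). MYOD1 was at 2.79, 6.14 and 3.89 TPM in high-Wnt cells and at 2.35, 0 and 0.55 TPM in low-Wnt cells, and MYF5 did not exceed 1.71 TPM in any library.

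The epidermal members were keratins and secreted or membrane proteins of the skin. anxa1c, an annexin, was at 58.5, 79.8 and 75.2 TPM in high-Wnt cells and at 1.74, 0.60 and 3.85 TPM in low-Wnt cells, and its lowest high-Wnt value was 33.6 times the higher of low-Wnt replicates 1 and 2. agr1, an anterior gradient gene, was at 68.1, 64.3 and 72.7 TPM against 5.21, 1.22 and 7.37 TPM. icn2, an ictacalcin of the S100 family of calcium-binding proteins, was at 105, 105 and 115 TPM against 23.1, 13.7 and 8.30 TPM. For these 3 genes the held-out library stayed far below every high-Wnt library.

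Among keratins, cyt1 (a type I keratin) was the most abundant, at 504, 503 and 539 TPM in high-Wnt cells and at 107, 162 and 220 TPM in low-Wnt cells. krt5, the type II keratin of basal epidermal cells, was at 58.7, 84.8 and 92.8 TPM against 4.04, 16.2 and 1.01 TPM. krt17, another type I keratin, was at 18.4, 24.3 and 25.9 TPM against 0.62, 2.23 and 0.90 TPM. RefSeq places krt17 and cyt1 in the same cluster of keratin genes, beside cyt1l, krt91 and krt92. cyt1l missed the rule by little, at 551, 675 and 632 TPM in high-Wnt cells and 138, 188 and 282 TPM in low-Wnt cells, while krt91 was at 10.7, 16.8 and 20.6 TPM against 9.18, 12.8 and 13.5 TPM. The cluster therefore held members and a gene whose groups overlapped. The tight junction gene cldne, a claudin, was at 13.6, 13.1 and 12.98 TPM in high-Wnt cells and 1.24, 2.41 and 4.24 TPM in low-Wnt cells. Other claudin genes, outside the rule, went both ways. Groups overlapped for cldnb, at 63.5, 68.7 and 69.1 TPM against 61.6, 61.5 and 126 TPM. They also overlapped for cldn1, at 31.1, 34.3 and 39.8 TPM against 16.3, 11.4 and 52.7 TPM. They did not for cldni, at 44.8, 56.8 and 52.0 TPM against 35.2, 43.2 and 14.5 TPM.

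The 7 epidermal members summed to 826, 875 and 934 TPM in high-Wnt cells and to 143, 198 and 246 TPM in low-Wnt cells. Of the 18 genes in the wider epidermis and periderm list, 5 were members. The list summed to between 3889 and 4297 TPM in high-Wnt cells and between 1887 and 2252 TPM in low-Wnt cells. Of its 13 other genes, 5 were called higher by limma without low-Wnt replicate 3 (beside 7.17% of all genes), among them krt4 at 816, 1050 and 999 TPM against 292, 386 and 52.6 TPM (log2 fold change 1.498, adjusted p = 0.0028 in that fit and 0.16 with all 6 libraries). TP63, a transcription factor of basal epidermis, went the other way in that fit, at 17.8, 20.0 and 18.8 TPM against 33.3, 29.6 and 5.43 TPM (log2 fold change -0.71, limma adjusted p = 0.028). With all 6 libraries its log2 fold change was 0.07 (limma adjusted p = 0.96). The part of epidermal cells in the result was not tested.

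**Figure D2:**
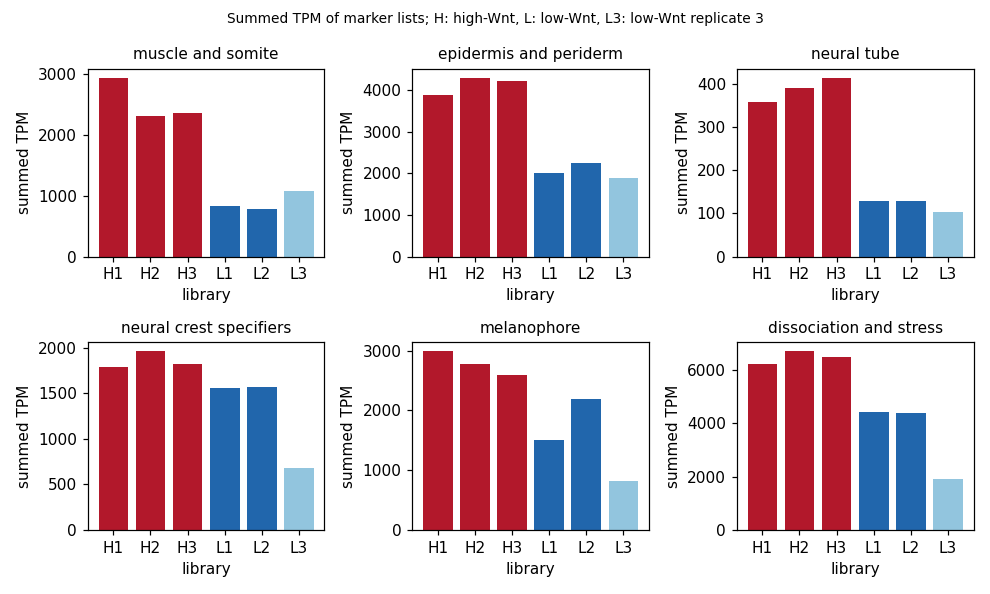
Summed TPM of 6 marker lists in the 6 libraries (bars start at 0). All 6 lists are higher in all 3 high-Wnt libraries than in any low-Wnt library. Not all lists left out of the figure had this order. The otic vesicle list was at 242 to 253 TPM in high-Wnt cells and at 294, 268 and 151 TPM in low-Wnt cells. All but the NC specifier list include members, which the rule chose. The NC specifier list is at 1786 to 1963 TPM in high-Wnt cells and at 1559, 1565 and 675 TPM in low-Wnt cells.

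Pigment cell members were few. KIT, the receptor that melanophores need to migrate and survive, was at 36.4, 26.8 and 28.1 TPM in high-Wnt cells and at 2.98, 8.78 and 0.46 TPM in low-Wnt cells. KCNJ13, a potassium channel whose zebrafish mutants have altered stripes, was at 13.3, 18.1 and 17.0 TPM against 3.11, 2.79 and 0.10 TPM. Both were lowest in the held-out library. Of the 20 melanophore genes listed, KIT was the only member. Limma called none of 19 tested genes with all 6 libraries, a count near the 0.367% of all genes called in either direction. At an unadjusted p under 0.05, 11 were higher, a count that includes KIT, beside 11.7% of all genes. Without low-Wnt replicate 3, 8 of the 18 other tested genes were called higher, beside 7.17% of all genes. MITF, the regulator of the melanophore fate, was one of them, at 188, 181 and 168 TPM in high-Wnt cells and at 73.5, 98.2 and 45.5 TPM in low-Wnt cells (log2 fold change 1.06, limma adjusted p = 0.0066 in that fit, 0.13 with all 6 libraries).

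Neural progenitor and glial members included SOX2, a transcription factor that maintains neural progenitors. It was at 34.4, 37.2 and 35.9 TPM in high-Wnt cells and at 10.7, 11.1 and 3.01 TPM in low-Wnt cells. FABP7, the fatty acid binding protein of radial glia, was at 146, 140 and 162 TPM against 27.3, 40.7 and 60.9 TPM. The other gene with the symbol FABP7 did not behave this way, with 0.33, 4.12 and 3.62 TPM against 10.8, 3.60 and 2.38 TPM. GPM6B, a membrane protein of the proteolipid family of neurons and glia, was at 24.6, 20.8 and 19.0 TPM against 4.09, 4.61 and 6.25 TPM. Another gene with the symbol GPM6B had overlapping groups, at 3.47, 2.62 and 3.33 TPM against 3.59, 2.07 and 0.22 TPM. The member seraf, a secreted factor of the Schwann cell lineage, was at 16.0, 18.8 and 16.2 TPM against 4.79, 3.50 and 4.85 TPM.

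Genes tied to Notch signalling were at moderate levels. her2, a hairy-related repressor, was at 167, 171 and 178 TPM in high-Wnt cells and 48.9, 49.6 and 67.2 TPM in low-Wnt cells. NRARP, a feedback inhibitor of Notch, was at 27.1, 27.2 and 28.2 TPM against 8.57, 7.74 and 16.9 TPM, and the second gene with that symbol was at 16.9, 17.2 and 13.2 TPM against 8.89, 9.12 and 3.79 TPM. Among the low-Wnt libraries, her2 and the member NRARP were highest in the held-out one, and the second NRARP gene was lowest there. RefSeq lists her2 beside her15.1, which was not a member and was at 193, 152 and 150 TPM in high-Wnt cells and 59.0, 51.5 and 90.4 TPM in low-Wnt cells (log2 fold change 1.55 without low-Wnt replicate 3, limma adjusted p = 0.0016, and 0.12 with all 6 libraries).

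The noncoding member si:ch73-21g5.7 lies next to her4.5 in RefSeq, in the her4 cluster of Notch target genes. It was at 37.9, 55.9 and 55.7 TPM in high-Wnt cells and 4.14, 1.21 and 8.06 TPM in low-Wnt cells. Its neighbour her4.5, outside the rule, was at 46.5, 74.8 and 59.6 TPM against 20.2, 15.9 and 7.25 TPM, and her4.2 was at 142, 126 and 113 TPM against 53.1, 48.0 and 9.40 TPM. The protein-coding genes of the cluster were higher in high-Wnt cells too. Their gap to the low-Wnt libraries that the rule used was smaller than that of the noncoding gene. For genes that reach the level of the rule, their place outside it fixes that order. Against the held-out library, her4.2 and her4.5 differed by more than the noncoding gene, and her4.1 by less. Among the protein-coding genes, her4.1 had the least separated groups, at 93.7, 70.6 and 54.8 TPM against 32.5, 32.6 and 43.2 TPM.

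SOX2 and FABP7 were also the only members in the list of neural tube neurons and progenitors, which held 25 genes. Its summed TPM was 358, 390 and 415 in high-Wnt cells and 129, 129 and 104 in low-Wnt cells. That sum includes SOX2 and FABP7, which the rule chose. FABP7 alone gave 146, 140 and 162 TPM of it in high-Wnt cells and 27.3, 40.7 and 60.9 TPM in low-Wnt cells. With all 6 libraries, limma called none of its 19 tested genes, which is near the 0.367% called over all genes in either direction. At an unadjusted p under 0.05, 13 were higher, SOX2 and FABP7 included, beside 11.7% of all genes. Without low-Wnt replicate 3, 10 of its 17 other tested genes were called higher, beside 7.17% of all genes. One was sox19a, a relative of SOX2, at 19.6, 24.6 and 21.3 TPM against 3.15, 7.40 and 1.84 TPM (log2 fold change 1.95, limma adjusted p = 0.0087, and 0.11 with all 6 libraries). The part of neural tube cells in the SOX2 and FABP7 values was not tested.

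**Figure D3:**
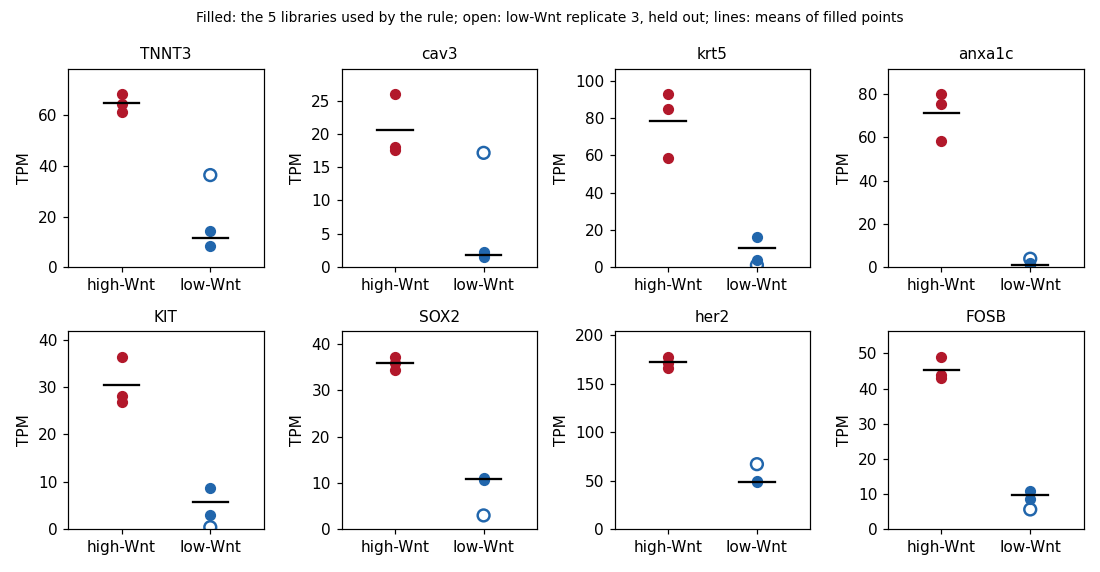
TPM of 8 members in each library, with filled points for the 5 libraries that the rule used, an open circle for the held-out low-Wnt replicate 3 and a line at the mean of the filled points. The open circle lies close to the high-Wnt points for cav3 (17.2 TPM), between the groups for TNNT3 (36.4 TPM) and at or below the filled low-Wnt points for KIT (0.46 TPM), SOX2 (3.01 TPM), krt5 (1.01 TPM) and FOSB (5.67 TPM).

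Members of the ear and extracellular matrix were lowest in the held-out library in all 4 cases. otos2, an otospiralin of the inner ear, was at 42.2, 95.2 and 93.3 TPM in high-Wnt cells and 7.72, 0.52 and 0 TPM in low-Wnt cells. col9a1b, a chain of the cartilage collagen type IX, was at 16.2, 17.7 and 14.99 TPM against 4.63, 1.61 and 0.44 TPM. AGRN (agrin), the proteoglycan that organizes the neuromuscular junction, was at 21.3, 20.0 and 18.4 TPM against 6.01, 5.49 and 0.86 TPM. The fourth, vwa1, a matrix protein with a von Willebrand factor A domain, was at 11.4, 12.1 and 12.1 TPM against 2.13, 3.58 and 0.53 TPM. None of the 16 listed otic vesicle markers was a member, where members were 0.221% of all genes, so a count of 0 is near that share. That list summed to between 242 and 253 TPM in high-Wnt cells and to 294, 268 and 151 TPM in low-Wnt cells.

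Stress and signalling members included FOSB, an immediate early gene of the AP-1 family, at 49.1, 44.0 and 43.0 TPM in high-Wnt cells and 10.96, 8.51 and 5.67 TPM in low-Wnt cells. crema, a cAMP-responsive modulator of transcription, was at 20.2, 15.6 and 13.8 TPM against 2.20, 3.66 and 0.60 TPM, and the small heat shock gene hspb9 was at 24.9, 23.7 and 27.6 TPM against 5.07, 2.39 and 1.33 TPM. The chemokine gene cxcl18b was at 42.9, 45.4 and 41.9 TPM in high-Wnt cells and at 12.9, 13.3 and 13.5 TPM in low-Wnt cells. Its 3 low-Wnt libraries lay at one level.

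FOSB was the only member in a list of 27 dissociation and stress genes. The list summed to between 6220 and 6711 TPM in high-Wnt cells and to 4410, 4397 and 1914 TPM in low-Wnt cells. With all 6 libraries, 17 of its 26 tested genes, FOSB included, were higher at an unadjusted p under 0.05, beside 11.7% of all genes. Limma called none of the 26 in that fit, which is near the 0.367% called over all genes in either direction. Without low-Wnt replicate 3 it called 12 of the 26 other genes higher, beside 7.17% of all genes. Of these, SOCS3, an inhibitor of cytokine signalling with 2 gene copies here, had one copy at 160, 140 and 125 TPM in high-Wnt cells and 42.6, 43.9 and 4.79 TPM in low-Wnt cells (log2 fold change 1.68, limma adjusted p = 0.00087 in that fit, 0.16 with all 6 libraries). The part of the response to dissociation in the stress members was not tested.

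The histone and clone-named group held some of the most abundant members. hist1h2a2, a histone H2A gene, was at 16.7, 19.2 and 14.6 TPM in high-Wnt cells and 0.45, 1.71 and 1.16 TPM in low-Wnt cells. si:ch211-113a14.22 was at 1545, 1155 and 1339 TPM against 274, 331 and 100 TPM, and si:ch211-113a14.28 was at 1149, 656 and 709 TPM against 218, 208 and 89.2 TPM. Together with si:ch211-113a14.10, they carry the name of the same genomic clone, and si:ch211-113a14.28 was the member nearest to the threshold. The group summed to 3001, 2073 and 2345 TPM in high-Wnt cells, where replicate 1 was the highest, and to 534, 579 and 256 TPM in low-Wnt cells.

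The other clone-named genes of the group were lower. zgc:173585, which RefSeq places near hist1h2a5, was at 78.1, 44.3 and 49.2 TPM in high-Wnt cells and 2.09, 11.28 and 5.64 TPM in low-Wnt cells. zgc:153405, from the same neighbourhood, was lowest in high-Wnt replicate 1, where zgc:173585 was highest, at 22.0, 38.7 and 40.1 TPM in high-Wnt cells, and was at 3.91, 5.73 and 7.52 TPM in low-Wnt cells. zgc:165555, near the histone gene h3c13a, was at 33.1, 19.3 and 22.8 TPM against 4.94, 5.09 and 10.6 TPM. Other histone H2A genes did not all separate, since hist1h2a3 was at 7.09, 8.97 and 5.99 TPM in high-Wnt cells and 6.85, 5.44 and 7.76 TPM in low-Wnt cells. Values of near-identical histone copies are uncertain.

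Ribosomal RNA and other noncoding RNA genes were also among the members. zgc:158463, a ribosomal RNA gene by RefSeq, was at 1770, 2168 and 2025 TPM in high-Wnt cells and 440, 496 and 429 TPM in low-Wnt cells. Both genes named 5_8S_rRNA had the same values, 968, 1249 and 1216 TPM against 200, 96.3 and 301 TPM, and so count as 1 measurement. rn7sl1, the RNA of the signal recognition particle, was at 64.8, 35.4 and 51.7 TPM against 7.87, 4.85 and 21.7 TPM. Another 5_8S_rRNA gene was below 30 TPM everywhere and its groups overlapped, at 13.3, 29.4 and 12.1 TPM in high-Wnt cells and 13.5, 0 and 5.08 TPM in low-Wnt cells.

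Of the other annotated members, RPL22L1, a paralog of ribosomal protein L22, was the most abundant, at 453, 450 and 437 TPM in high-Wnt cells and 94.4, 90.8 and 151 TPM in low-Wnt cells. rbp4l, a relative of retinol binding protein, was at 37.8, 28.2 and 23.3 TPM against 0.83, 2.83 and 1.64 TPM. CCNI, cyclin I, was at 76.5, 69.4 and 61.7 TPM against 13.1, 14.6 and 4.12 TPM. RPL22L1 was highest in replicate 3 among the low-Wnt libraries, and CCNI was lowest there. GANAB (a glucosidase of the endoplasmic reticulum), SCAMP1 (a membrane protein of secretory vesicles), SLC38A6 (of an amino acid transporter family) and tial1 (an RNA-binding protein) were each between 11.2 and 24.8 TPM in the high-Wnt libraries and lowest in low-Wnt replicate 3.

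Among the 12 members without a function in the tables were the most abundant and the most separated. ENSDARG00000112275 and ENSDARG00000113671 shared all values, at 2773, 4408 and 4408 TPM in high-Wnt cells and 676, 584 and 1066 TPM in low-Wnt cells. ENSDARG00000111237 was at 85.0, 99.2 and 258 TPM in high-Wnt cells and at 0.13, 0 and 39.5 TPM in low-Wnt cells. It had the largest gap between the libraries that the rule used and also a wide spread within both groups. zgc:193505 varied in the high-Wnt libraries as well, at 12.0, 41.4 and 43.5 TPM, and was at 1.39, 1.34 and 2.49 TPM in low-Wnt cells. Because 4 members share their values with another member, the list holds 69 distinct sets of values, and 1991 genes above 0 in the table shared all 6 values with another gene.

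The threshold cut through continuous values. By fold, the members just inside were si:ch211-113a14.28 (lowest high-Wnt TPM 3.00 times the highest of low-Wnt replicates 1 and 2), KIT (3.05), AGRN (3.05), tial1 (3.08) and si:ch211-157c3.4 (3.08). Just outside were si:ch211-113a14.18 (2.99), angptl7 (2.96), cyt1l (2.93), snx15 (2.91) and si:ch211-113a14.24 (2.90). By level, the lowest high-Wnt TPM was 10.3 for zgc:113232, 11.2 for SLC38A6, 11.4 for SCAMP1, 11.4 for vwa1 and 11.6 for myhz1.1 inside, and 9.90 for PDPR, 9.19 for zgc:113278, 9.06 for txlnbb, 8.97 for fxyd11 and 8.96 for AQP3 outside. Genes of the same keratin and clone-named clusters thus fell on both sides, and 39 of the 71 members had a fold between 3 and 4.

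The held-out library gave values that the rule had not used. Each readout also used the high-Wnt libraries, which the rule did use. Low-Wnt replicate 3 was below every high-Wnt library for all 71 members, where the share was 74% over all 6090 genes with a lowest high-Wnt TPM of at least 10. The lowest high-Wnt TPM was at least 3 times low-Wnt replicate 3 for 46 members (64.8%), against 46.6% of those genes. The median log2 ratio of high-Wnt cells over low-Wnt replicate 3 was 2.47 for members and 1.46 for those genes. Most genes were low in this library, so these shares move with its scaling.

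After quantile normalization, which gives every library the same distribution, low-Wnt replicate 3 was below every high-Wnt library for 57 members (80.3%, against 53.1% of the 6090 genes). The 3-fold mark was then met by 22 members (31%, against 10.6%), with a median log2 ratio of 1.43 against 0.28. When each library was centred on its median, the numbers were 39 members below every high-Wnt library (54.9%, against 42%) and 17 past the 3-fold mark (23.9%, against 6.35%), with a median log2 ratio of 0.79 against -0.22. Members were above the other genes in each share, and how many of them separated from the held-out library depended on the scaling. The 6090 genes were chosen by high-Wnt level alone, so part of this difference may follow from the choice of members. With 1 library held out there is no test of these differences.

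**Figure D4:**
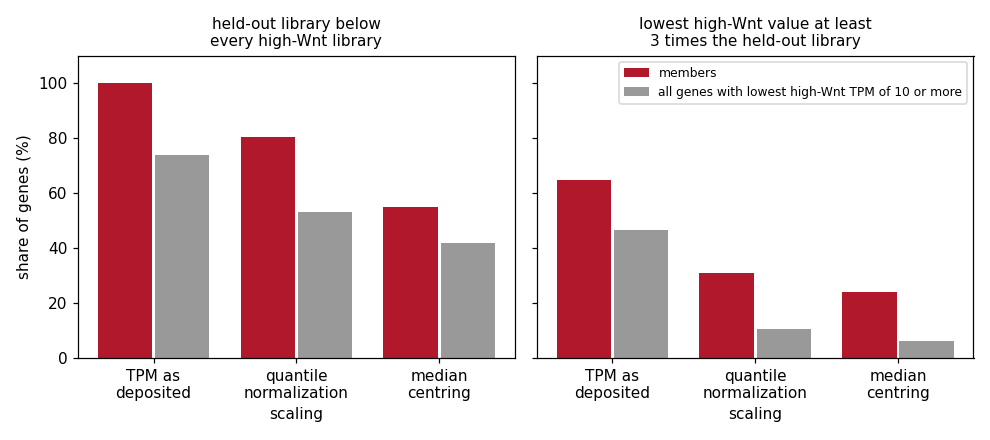
Share of genes (%) for which low-Wnt replicate 3 was below every high-Wnt library (left) or the lowest high-Wnt value was at least 3 times it (right), for the 71 members and for all 6090 genes with a lowest high-Wnt TPM of at least 10, under 3 scalings. The members' bars are taller in each pair, and fall from 100% to 54.9% on the left and from 64.8% to 23.9% on the right.

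Groups of members differed in where the held-out library fell. Its position was expressed on the log2(TPM + 1) scale, with 0% at the mean of low-Wnt replicates 1 and 2 and 100% at the mean of the high-Wnt libraries. The median position was 49.6% for muscle members, 36.7% for noncoding RNA genes, 23.8% for epidermal members and 23.0% for progenitor, glial and Notch members. It was -34.9% for stress and signalling members, -69.6% for ear and matrix members and -88.9% for both pigment members, where a negative value is below the other low-Wnt libraries. Over all members it was 10.9%, with replicate 3 above both other low-Wnt libraries for 37, below both for 27 and between them for 7. Both ends of this scale are values that the rule used, so part of a position may follow from the choice of members. No position or count of this kind was computed over all genes, and differences between groups were not tested.

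Quantile normalization moved all groups upward and changed the sign for stress and signalling members and for the other annotated members. The median position was then 78.8% for muscle, 80.4% for progenitor, glial and Notch, 41.6% for epidermal, 31.2% for stress and signalling, -14.6% for ear and matrix and -36.6% for pigment members. Low-Wnt replicate 3 was nearer to the high-Wnt mean than to the other low-Wnt libraries for 12 members as deposited and for 33 after quantile normalization. The median of the muscle members was above those of the ear, matrix and pigment members on both scales. As deposited, 5 of 16 muscle members kept a 3-fold difference from the held-out library, beside 46.6% of the 6090 genes. It was kept by 3 of 6 progenitor, glial and Notch members and by 6 of 12 without a function. The counts were 6 of 8 for histone and clone-named, 4 of 5 for noncoding RNA and 6 of 7 for other annotated members. It was kept by 6 of 7 epidermal members, all 4 stress and signalling members and all 6 of the pigment, ear and matrix members.

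**Figure D5:**
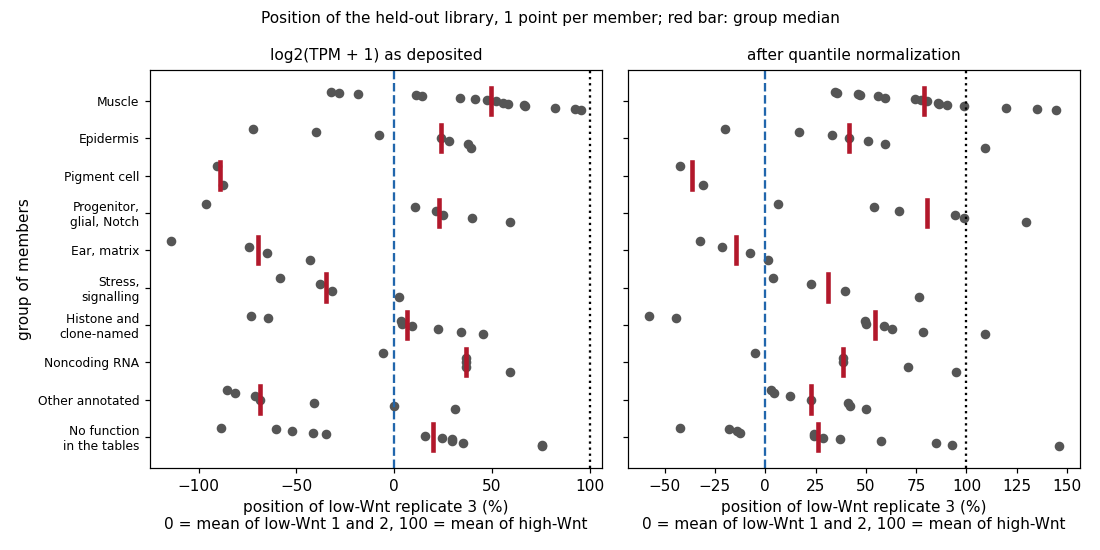
Position of low-Wnt replicate 3 for each member (points) between the mean of low-Wnt replicates 1 and 2 (0%, dashed line) and the mean of the high-Wnt libraries (100%, dotted line), by group, as deposited (left) and after quantile normalization (right), with red bars at the group medians. Muscle members lie to the right (medians 49.6% and 78.8%) and pigment members to the left (-88.9% and -36.6%).

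In the fit of all 6 libraries, limma called 13 of the 71 members higher in high-Wnt cells at an adjusted p under 0.05, where the share over all 14163 genes tested was 0.261% (0.367% in either direction). After quantile normalization it called 36 members, beside 0.65% of genes. The rule used this contrast, so the counts are a description and nothing is read from them. The called members were anxa1c, agr1, krt17 and icn2 of the epidermal group, both 5_8S_rRNA genes, zgc:158463, hist1h2a2, rbp4l, RPL22L1 and 3 genes without a symbol. No muscle, pigment, progenitor, ear or stress member was among them, although all 71 members had an unadjusted p under 0.05. The median log2 fold change of members was 2.34 (range 1.19 to 5.19), and that of all genes tested was 0.51. After quantile normalization the medians were 2.07 and 0.02, and without low-Wnt replicate 3 they were 2.36 and 0.05. That last fit called all 71 members, beside 7.17% of genes, a count that the rule nearly fixes.

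None of the 114 genes matched in 4 lists of Wnt ligands, receptors, transducers and feedback genes was a member, where members were 0.221% of all genes, so a count of 0 is near that share. Of the 114 genes, 84 were tested. Limma called none of them higher with all 6 libraries, which is near the 0.261% called higher over all genes. At an unadjusted p under 0.05, 13 were higher, or 15.5%, beside 11.7% of all genes. Limma called RSPO1, an R-spondin that enhances Wnt signals, lower. RSPO1 was at 0.03, 0.31 and 0.33 TPM in high-Wnt cells and at 10.7, 5.72 and 7.5 TPM in low-Wnt cells (log2 fold change -2.85, standard error 0.40, limma adjusted p = 0.042). Without low-Wnt replicate 3, 8 of 87 Wnt genes (9.2%) were called higher, beside 7.17% of all genes, and 7 (8.05%) were called lower, beside 5.57%. These shares are near those of all genes. The median log2 fold change of the Wnt genes was 0.01 in that fit, beside 0.05 for all genes. With all 6 libraries it was 0.83, beside 0.51 for all genes.

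Values of single Wnt genes are given as examples. TCF7L2, a TCF transcription factor, was at 19.8, 17.8 and 12.0 TPM in high-Wnt cells and 4.88, 3.60 and 0.84 TPM in low-Wnt cells (log2 fold change 1.73 without low-Wnt replicate 3, limma adjusted p = 0.0082, and 0.14 with all 6 libraries). The Wnt target SP5 was at 5.90, 7.36 and 6.16 TPM against 16.8, 19.2 and 16.0 TPM (log2 fold change -1.35 without low-Wnt replicate 3, limma adjusted p = 0.0081, and 0.21 with all 6 libraries). LEF1, a nuclear partner of beta-catenin and a target of the pathway, was at 30.5, 37.9 and 34.8 TPM against 33.6, 21.7 and 0.94 TPM, and its log2 fold change without low-Wnt replicate 3 was 0.33 (standard error 0.21, limma adjusted p = 0.32). The 32 listed NC specifiers included no member either, which is again near the 0.221% of all genes that were members. With all 6 libraries, limma called none of 29 tested, which is near the 0.367% called over all genes in either direction. Of the 29, 10 were higher at an unadjusted p under 0.05, beside 11.7% of all genes. Without low-Wnt replicate 3, 7 of 31 tested were called higher, beside 7.17% of all genes, and 1 lower, beside 5.57%.

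The rule turned around, with low-Wnt replicates 1 and 2 at least 3 times above all high-Wnt libraries, found 49 genes. For 36 of them (73.5%), low-Wnt replicate 3 was above every high-Wnt library, and for 20 (40.8%) it was at least 3 times the highest. The matching counts of the members were 71 of 71 and 46 of 71, beside 74% and 46.6% of the 6090 genes above. For the reversed list no share over all genes was computed, so its counts are not read as high or low. The low level of most genes in low-Wnt replicate 3 favours the members in this comparison and works against the reversed list, and the difference between the lists was not tested.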

How the data were processed

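Reads of the Smart-seq2 libraries were aligned by the authors with STAR (genome GRCz11), and RSEM gave the abundances. The deposited values are TPM per Ensembl gene, scaled by the authors to a fixed total per library. They hold no depth, so no counting interval was computed, and edgeR, which the authors used on counts, was not run. Symbols came from a gene table that named 28988 of 32057 identifiers. List symbols without an exact match were matched ignoring case, through aliases added after seeing the data, or without a final a or b. TPM + 1 was log2 transformed and fitted with limma 3.58.1 (R 4.3.3, variance trend, Benjamini-Hochberg) over genes that reached 1 TPM in 3 or more libraries (2 where a library was left out). Differentially expressed (DE) genes had an adjusted p under 0.05. The pseudocount of 1 understates changes of low genes. The fit was tested on simulated data whose spread left out low-Wnt replicate 3, so that test does not cover the spread of all 6 libraries. Alternatives were another pseudocount, no filter, other scalings, no trend, sample weights, a replicate block and each library left out. Python 3.11.15, pandas 2.3.3 and matplotlib 3.10.9 made tables and figures. Genes were named by separation (15 members), level (10), membership in lists or regulatory function, nearness to a threshold, level in low-Wnt replicate 3, shared symbol and, for Wnt lists, a DE call; other listed genes were picked as examples after their values were seen. Members and lists were chosen with earlier results of these data known. Promoters and sequences were not analysed here.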

Additional observations from a re-analysis of the deposited data

How the results depend on the processing

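The number of DE genes was 52 over all 6 libraries (37 higher, 15 lower) and 17 with a pseudocount of 0.1, 4 without the filter, 177 after quantile normalization (92 higher, 85 lower), 13 without the variance trend and 4128 with sample quality weights. The 13 called members became 1, 1, 36, 3 and 71 under these settings. Median centring gave 46 DE genes, 11 higher and 35 lower, and 8 members, none of them among the 13. Rescaling without 13 mitochondrially encoded genes gave 48 DE genes and 13 members. Leaving out 1 library gave between 0 and 1912 DE genes and between 0 and 71 members. Without low-Wnt replicate 3 the numbers were 1912 and 71, and without any other library both were 0 (between 1003 and 2962 genes at an unadjusted p under 0.05, limma). The replicate block gave 168 DE genes and 38 members. Deviations of same-numbered libraries had correlations of 0.03, -0.01 and 0.14, so the numbers were not taken as pairing. For single members, 994 values gave 706 on the same side of the threshold, 114 weaker, 174 stronger and 0 reversed. Against the held-out library, median centring gave 39 members below every high-Wnt library and 17 at the 3-fold mark, quantile normalization 22 at that mark, and the median log2 ratio was 1.43 after quantile normalization, 0.79 after centring and 2.98 with a pseudocount of 0.1. Leaving out a high-Wnt library gave 71 members below the others, 46 to 52 at the 3-fold mark and median ratios of 2.40 to 2.65. The cause of these shifts was not tested. The promoter motif search was not run.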
